A study of Mus musculus with 10 samples.

Results

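Acetylation of histone H3 at lysine 27 (H3K27Ac) was profiled by CUT&Tag in mouse retinal explants, and the response of this mark to glucose was measured gene by gene. Of the 10 libraries of the series, 4 carried this mark, 2 from explants held in 5 mM glucose and 2 from explants held in 25 mM glucose, and the other 6 carried lactylation of lysine 18 (H3K18La). All explants were retinas of wild-type C57BL/6J mice at postnatal day 28, freed of sclera and pigment epithelium, kept in culture for 48 hours and then dissociated, with 500000 cells entering each assay. The labels put all libraries in batch 1 and do not state whether replicates came from separate mice, while the methods of the study speak of biological replicates for the peak calls. The p-values of loci rest on the spread between these libraries, whatever its source, taken from its trend over loci and not from each locus. The 108253 peaks of the deposited table were collapsed to 25400 loci by gene symbol. The value of a locus is the sum over its peaks of RPKM times peak width in kilobases, which gives reads scaled to the library total (RPM).

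H3K27Ac marks active promoters and enhancers and is laid down by acetyltransferases that draw on acetyl-CoA, a product of glucose breakdown. Rods make up most of the cells of the mouse retina, and they convert much of their glucose to lactate. In rods, the light signal is relayed by transducin to a cyclic GMP phosphodiesterase and read out by cyclic nucleotide-gated channels, and the genes of this cascade are switched on by CRX, NRL and NR2E3. The comparison asked which loci gained more and which gained less H3K27Ac than the rest when glucose was raised from 5 to 25 mM.

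The libraries held 4324289 and 6210631 reads in their RPKM totals at 5 mM and 7193094 and 7424470 at 25 mM. Of these reads, 21.1% and 31.5% lay in peaks at 5 mM and 69.5% and 56.5% at 25 mM. The means were 26.3% ± 7.35 in low and 63.0% ± 9.19 in high glucose (SD, n = 2 each), so that the share was 2.39 times as large. Groups of 2 libraries cannot give an exact two-sided permutation p below 0.33, which is the p observed. Each value is a share of the reads of its library, and more H3K27Ac per cell and a better enriched library cannot be told apart here. Nor can fewer cells of a type and less of the mark per cell be told apart in bulk tissue. By immunoblot of explants, the study saw no significant change of H3K27Ac with high glucose. It also reported fewer H3K27Ac peaks at 25 mM than at 5 mM.

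The labels call the mark H3K27Ac, but their protocol names an antibody to H3K9me3, a mark of silent chromatin, where the study's methods name one to H3K27Ac. Within the H3K18La peaks, the signal was dense at genes that are active in retina. Per kilobase of peak, the median member of a list of 23 rod phototransduction genes stood above 92.8% of the 12833 loci that were tested. Genes that the retina does not use mostly fell under the minimum for testing. Of 39 Hox genes, 5 had any peak, which was set by the H3K18La peaks and says nothing about the antibody used. None of those 5 reached the minimum for testing, and 8 of 165 olfactory and vomeronasal receptor loci reached it. By density, the median of those 8 stood above 47.1% of tested loci. Marker lists of sparse cell types were measured in part. Among ganglion cell genes, 5 of the 15 with a locus were tested, and Pou4f1, Pou4f2 and Thy1 fell under the minimum of 5 RPM, while Opn4 stood above 89.0% of tested loci by density. Of 14 cone loci, 10 were tested. Opn1sw, Opn1mw and Arr3 had means of 1.52, 3.95 and 4.26 RPM and were not tested.

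Nearly every measured locus gained signal in 25 mM glucose. Over the 12833 loci with a mean of at least 5 RPM, which held 95.6% of the H3K27Ac reads in peaks, the median difference was 1.22 on the log2(RPM + 0.5) scale, equal to 2.34-fold. The central 90% of loci ran from 0.34 to 1.90. The difference was negative at 126 loci, or 0.982%. By limma with Benjamini-Hochberg adjustment, 9673 loci (75.4%) were higher past 0.05 and 0 were lower. At an unadjusted p under 0.05, 0 loci were lower as well. Without the minimum of 5 RPM, 69 of 25400 loci were lower and 5901 higher. The count of higher loci came to 0 without the first 25 mM library and to 4418 without the second, so that it rests on both. The gain was therefore described relative to this common shift. The excess of a locus is its log2 difference after each library was centred on its median over the tested loci, so that an excess of 0 is a gain equal to that of the middle locus.

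**Figure D1:**
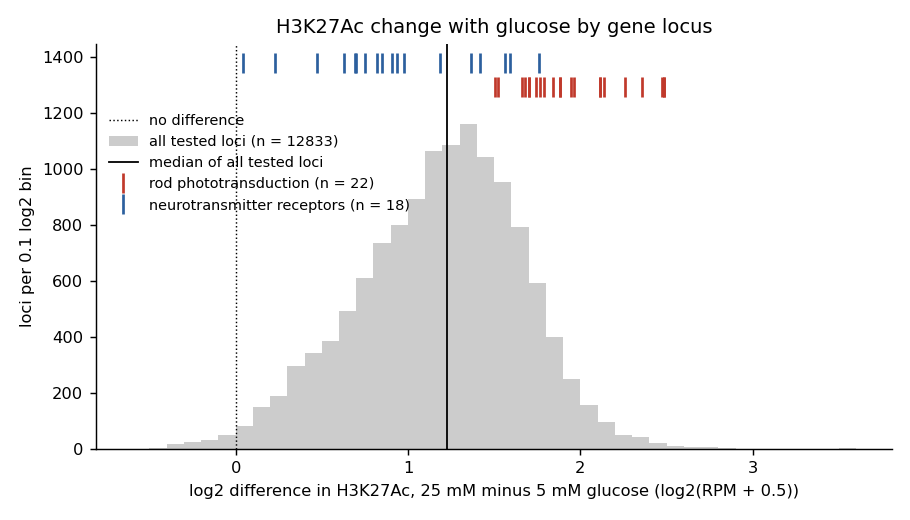
Distribution over 12833 loci of the log2 difference in H3K27Ac, 25 mM minus 5 mM glucose, on the log2(RPM + 0.5) scale (x axis), as loci per bin (y axis). The solid line is the median of 1.22 and the dotted line is no difference. Red ticks are the 22 tested rod phototransduction loci, all to the right of the median, and blue ticks are 18 neurotransmitter receptor loci, mostly to its left.

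Centred in this way, 937 loci (7.3%) gained more than the common shift and 1275 (9.94%) gained less, each past an adjusted p of 0.05 in limma. Photoreceptor genes were among the loci with the largest excess. By a rule that took protein-coding loci with a mean of at least 20 RPM whose glucose groups did not overlap after centring, the 12 largest were Gnb3, Bcl3, Unc119, Ndufaf3, Lbhd1, Irgm1, Zfp213, Crx, Ip6k1, Tmem259, Gnat1 and Guca1a. Their excess ran from 1.27 to 1.68, with SEs of 0.18 to 0.25 and adjusted p of at most 2.85e-05, and their RPM was 5.64-fold to 8.25-fold higher at 25 mM. The 12th, Guca1a, had 1.27. Gnb3, Unc119, Crx, Gnat1 and Guca1a act in photoreceptors, while Bcl3 is a co-regulator of NF-kappaB, Irgm1 an interferon-inducible GTPase and Ndufaf3 an assembly factor of mitochondrial complex I.

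Gnb3 encodes a G protein beta subunit of cones and ON bipolar cells. Its single peak, at chr6:124839144-124841484 (GRCm38) over the promoter, gave 6.24 and 10.5 RPM at 5 mM and 96.5 and 41.3 RPM at 25 mM. Both 25 mM libraries were above both 5 mM libraries, and the first 25 mM library was far above the second. The excess was 1.68 (SE 0.21, limma adjusted p = 6.48e-11). Unc119, a lipid-binding protein that carries transducin in photoreceptors, had 22.2 and 33.2 RPM at 5 mM against 228 and 123 RPM at 25 mM, an excess of 1.39 (SE 0.18, limma adjusted p = 1.08e-10). Bcl3 had 14.3 and 20.6 RPM against 166 and 73.8 RPM. The groups did not overlap at any of these loci, and in each the first 25 mM library stood highest.

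**Figure D2:**
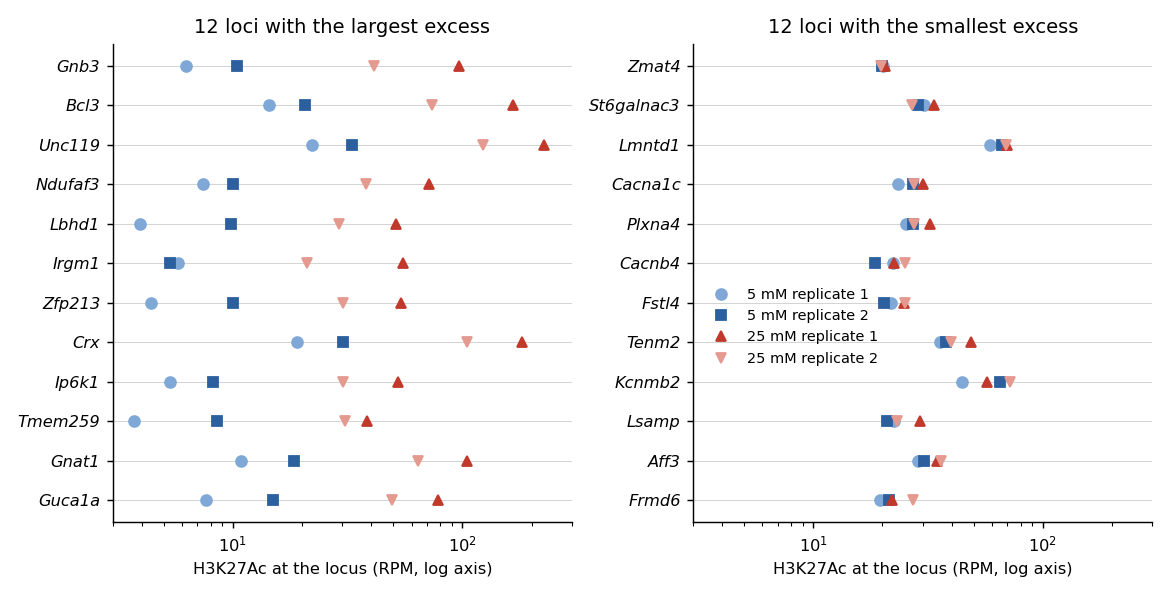
H3K27Ac in RPM (x axis, log scale) in each of the 4 libraries at the 12 loci with the largest excess (left) and the 12 with the smallest (right), 1 point per library. At the left the 25 mM libraries lie above the 5 mM libraries at every locus and replicate 1 is the higher of the 2, and at the right the 4 libraries lie close together, with 19.8 to 20.6 RPM at Zmat4.

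The promoter windows of these loci are shown for those that hold a short CRX-type motif. The loci were chosen by their excess, so that the counts below describe them. RefSeq windows of 300 bases, from 250 before to 50 after the start site on GRCm38.p6, overlapped a promoter peak of 7300 tested loci and of 8 of the 12 loci with the largest excess. The letters TAATCC, searched on both strands, occurred in 5 of those 8 windows, in 7 of 15 windows of rod phototransduction loci and in 465 of 7300 windows (6.37%). The 5 windows are at chr7:15879906-15880205 (minus strand, Crx), chr11:78345334-78345633 (plus, Unc119), chr17:47400557-47400856 (minus, Guca1a), chr19:8883628-8883927 (plus, Lbhd1) and chr11:48871371-48871670 (minus, Irgm1). A sixth, of Aff3 at chr1:38627195-38627494 (minus), comes from the loci with the smallest excess and holds 5 copies of the GC box letters GGGCGG and none of TAATCC. It has the most copies of the 6 windows of the smallest loci, of which 3 hold GGGCGG, as do 3 of the 8 of the largest, and 0 of those 6 hold TAATCC. Each is written 5′ to 3′ on the strand of the gene, with capitals for TAATCC or its reverse complement and for GGGCGG or its reverse complement.
Crx: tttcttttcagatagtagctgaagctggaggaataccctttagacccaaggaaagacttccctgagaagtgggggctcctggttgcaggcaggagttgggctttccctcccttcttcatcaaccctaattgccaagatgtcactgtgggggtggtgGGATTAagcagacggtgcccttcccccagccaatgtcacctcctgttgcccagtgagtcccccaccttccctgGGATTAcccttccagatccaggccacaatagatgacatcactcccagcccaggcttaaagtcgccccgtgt
Unc119: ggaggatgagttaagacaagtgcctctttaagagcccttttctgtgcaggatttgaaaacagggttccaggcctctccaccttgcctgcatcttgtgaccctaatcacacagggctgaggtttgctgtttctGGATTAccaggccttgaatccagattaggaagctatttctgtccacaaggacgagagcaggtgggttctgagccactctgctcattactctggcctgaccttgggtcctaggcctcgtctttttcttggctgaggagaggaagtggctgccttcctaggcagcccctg
Guca1a: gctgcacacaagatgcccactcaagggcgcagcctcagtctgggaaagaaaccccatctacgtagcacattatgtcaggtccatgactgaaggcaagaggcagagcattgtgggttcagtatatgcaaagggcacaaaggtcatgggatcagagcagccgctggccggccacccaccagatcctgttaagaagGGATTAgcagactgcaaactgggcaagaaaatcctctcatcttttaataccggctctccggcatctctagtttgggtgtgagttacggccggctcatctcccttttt
Lbhd1: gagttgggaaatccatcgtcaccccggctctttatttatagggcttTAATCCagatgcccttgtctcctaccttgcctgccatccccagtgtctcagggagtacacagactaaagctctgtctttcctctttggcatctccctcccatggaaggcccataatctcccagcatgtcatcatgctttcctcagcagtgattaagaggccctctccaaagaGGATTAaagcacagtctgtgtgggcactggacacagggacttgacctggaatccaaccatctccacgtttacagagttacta
Irgm1: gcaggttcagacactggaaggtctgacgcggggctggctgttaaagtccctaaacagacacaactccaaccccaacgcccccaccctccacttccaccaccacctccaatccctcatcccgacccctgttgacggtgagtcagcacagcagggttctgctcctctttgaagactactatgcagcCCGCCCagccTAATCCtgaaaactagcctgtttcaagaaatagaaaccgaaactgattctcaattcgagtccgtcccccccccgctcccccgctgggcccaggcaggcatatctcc
Aff3: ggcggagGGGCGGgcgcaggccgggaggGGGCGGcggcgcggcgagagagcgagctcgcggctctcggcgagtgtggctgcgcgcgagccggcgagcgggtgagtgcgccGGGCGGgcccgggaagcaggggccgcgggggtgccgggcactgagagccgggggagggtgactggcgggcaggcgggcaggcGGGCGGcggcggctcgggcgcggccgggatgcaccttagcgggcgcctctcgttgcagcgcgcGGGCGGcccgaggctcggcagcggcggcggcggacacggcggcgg

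Over all matched loci the motif went with little difference. Of the 465 loci with TAATCC in the window, 10.97% gained more than the common shift, against 8.27% of the 6835 without it. Outside the rod, cone, regulator, outer segment and synapse lists these shares were 8.35% of 443 loci and 8.07% of 6799. Within those lists, 14 of 22 loci with the motif and 16 of 36 without it passed in the higher direction. The letters TGCTGA (NRL-type), CACGTG (E-box) and TGAGTCA (AP-1) were searched as well and stood in 4, 0 and 2 of 15 rod windows, against 15.1%, 10.3% and 2.96% of all matched windows. GGGCGG was in 68.8% of all matched windows and in 64.8% and 66.5% of those of loci that gained more and less. It was in 3 of 15 rod windows and 3 of 13 regulator windows. The 8 windows of the largest loci were picked by their excess, and a match of letters is a description of this window.

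Rod phototransduction genes gained together. Of 23 genes on the list, 22 had a locus and were tested, 17 gained more than the common shift and 0 gained less, beside 7.3% and 9.94% of all loci. The median excess was 0.67, against 0.01 over all tested loci, and the lowest member, Gngt1, had 0.29. After centring, the groups did not overlap at any of the 22, with 25 mM higher, as was so at 30.7% of all loci (25 mM lay lower at 29.6%). Together the 22 loci took 0.310% and 0.361% of the reads in peaks at 5 mM and 0.583% and 0.495% at 25 mM. With voom, a weighted fit on recovered reads, 8 of the 22 gained more and 0 gained less. The count of 17 became 9 without the first 25 mM library, 13 without the second, 6 without the first 5 mM library and 17 without the second, while the median stayed between 0.55 and 0.85.

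Gnat1, the rod transducin alpha subunit, had 10.9 and 18.5 RPM at 5 mM against 105 and 64.0 RPM at 25 mM, an excess of 1.27 (SE 0.20, limma adjusted p = 1.35e-07). Pdc, phosducin, which binds the transducin beta and gamma subunits, had 16.2 and 27.1 RPM against 132 and 79.1 RPM and an excess of 1.05. At both loci the 25 mM libraries stood well above the 5 mM libraries.

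Other members of the cascade varied. The phosphodiesterase subunit Pde6g had an excess of 0.92, while Pde6a and Pde6b had 0.58 and 0.49, all past the threshold. The calcium sensors Guca1b and Rcvrn had 0.90 and 0.75. Arrestin, encoded by Sag, had 0.49 and the exchanger Slc24a1 had 0.67. The 5 members that did not pass were Gucy2f at 0.53, the GTPase activator Rgs9 at 0.46, the channel subunits Cnga1 at 0.45 and Cngb1 at 0.31, and Gngt1, the gamma subunit of rod transducin, at 0.29. Their values were above 0, and no test compared them with the members that passed.

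The regulators of photoreceptor identity moved in the same direction. Of 16 genes, 15 were tested, 11 gained more than the common shift and 0 gained less, with a median of 0.67, beside 7.3% higher over all loci. The 11 became 3 without the first 25 mM library, 8 without the second, 5 without the first 5 mM library, 10 without the second and 5 with voom. Nrl and Nr2e3 stand on this list and on the rod list. Crx, the homeobox factor of both photoreceptor types, had 19.0 and 30.1 RPM at 5 mM and 181 and 104 RPM at 25 mM, without overlap, and an excess of 1.29 (SE 0.19, limma adjusted p = 5.07e-09). Nrl, the leucine zipper factor that sets rod fate, had 21.3 and 34.3 RPM against 193 and 103 RPM, an excess of 1.15. Neurod1 and Crxos had 0.94 each, and Casz1 and Esrrb, which have the highest summed signal of the list over 44 and 57 peaks, had 0.89 and 0.82. Rorb at 0.14, Tbx2 at 0.05, Prdm1 at 0.35 and Nr1d1 at 0.42 did not pass.

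Genes of the outer segment and its matrix gained more than the common shift at 10 of 18 tested members and less at 0, with a median of 0.55, beside 7.3% higher and 9.94% lower over all loci. With voom, 4 members gained more. Prph2, the disc rim protein peripherin, had 37.5 and 65.9 RPM against 357 and 213 RPM and an excess of 1.25 (SE 0.18, limma adjusted p = 5.07e-09). Rbp3, the retinoid carrier of the matrix, had an excess of 1.00, Tulp1 had 0.76 and Rp1 had 0.74. The matrix proteoglycan genes Impg1 and Impg2 had 0.11 and 0.26, the retinoid transporter Abca4 had 0.25, and the cadherin Pcdh15, summed over 114 peaks, had -0.04, and these did not pass. Without single libraries, 3 to 11 members passed.

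At the ribbon synapse, the output of photoreceptors, 6 of 20 members gained more than the common shift and 0 gained less, with a median of 0.34, beside 7.3% higher over all loci. The 6 became 1 without the first library of either group, 8 and 5 without the second 25 mM and 5 mM libraries, and 2 with voom. Ctbp2, whose locus also encodes the ribbon protein RIBEYE, had 22.4 and 37.0 RPM against 196 and 106 RPM and an excess of 1.09 (SE 0.18, limma adjusted p = 1.74e-06). The calcium-binding protein Cabp4 had 0.84. The active-zone genes Bsn and Rims1 had 0.01 and -0.75 and did not pass. Of 24 ciliary and BBSome genes, 1 gained more, Arl6 at 0.90, and 1 gained less, Bbs9 at -0.50, with a median of 0.24. Over all loci, 7.3% were higher and 9.94% lower. After centring, the groups stood apart with 25 mM higher at 12 of the 24, beside 30.7% of all loci, and with 25 mM lower at 1. These ciliary calls rest in part on single libraries. With voom 2 were higher and 0 lower, and without single libraries the median ranged from 0.14 to 0.31.

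**Figure D3:**
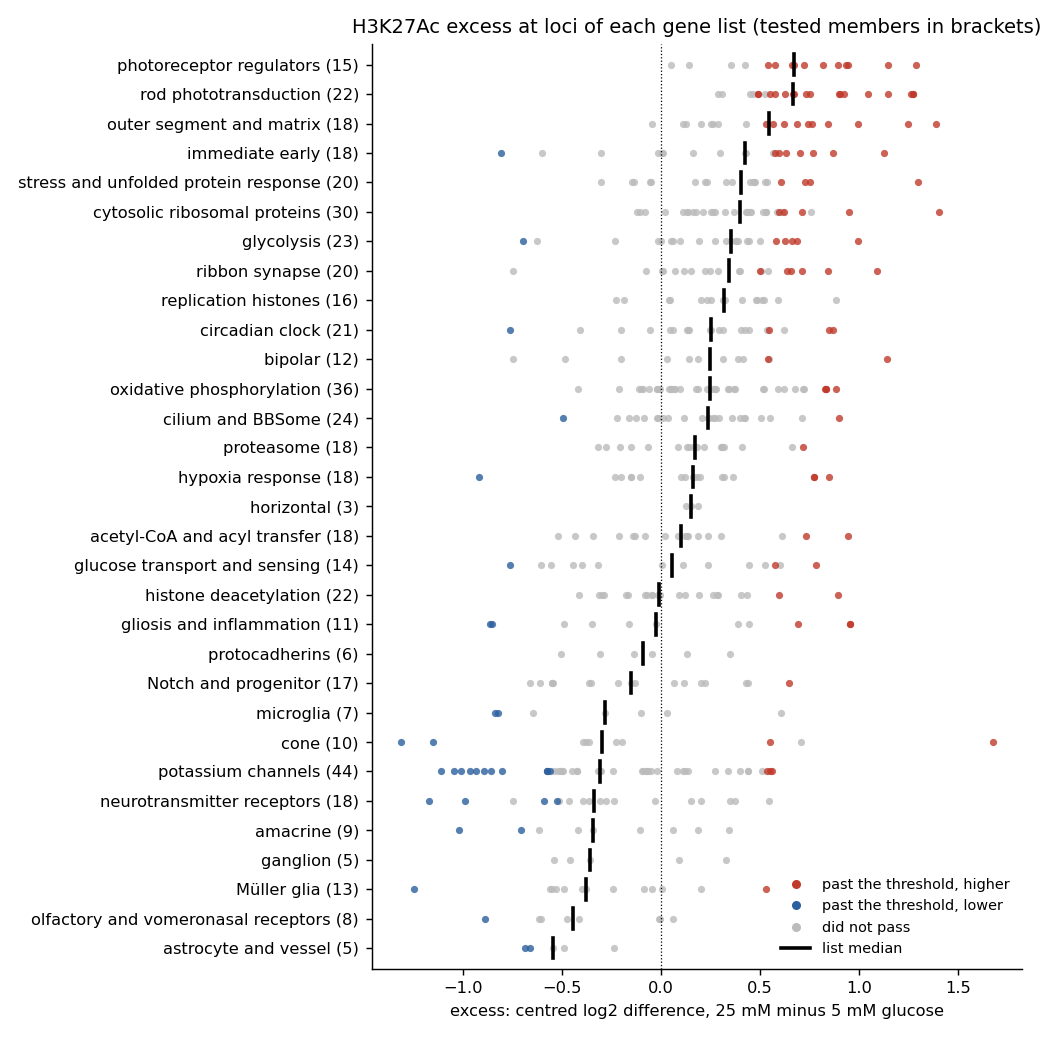
Excess, the centred log2 difference between 25 mM and 5 mM glucose (x axis), of tested members of 31 gene lists (y axis, number tested in brackets), with the list median as a bar. Points in red and blue passed an adjusted p of 0.05 in the higher and lower direction. The rod and regulator lists (0.67) and the outer segment list (0.55) have the highest medians, and the astrocyte and vessel list the lowest, -0.54.

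Lists of other retinal cells had medians nearer to or below the common shift. By H3K27Ac density these list medians stood above 15.9% (cone) to 33.0% (bipolar) of tested loci, against 92.8% for rods. The median excess of tested loci was -0.60 and -0.19 in the lowest and second quintiles of that density, and 0.35 in the highest. That density includes the values being compared, and its part in the list medians was not tested. Of 10 tested cone loci, 2 gained more, Gnb3 and Grk1, a photoreceptor kinase that is also on the rod list, and 2 gained less, with a median of -0.29, beside 7.3% higher and 9.94% lower over all loci. Without the first 5 mM library 1 was higher and 0 lower, and without the first 25 mM library 1 and 1. The channel subunit Cngb3 had 6.48 and 7.89 RPM at 5 mM and 5.98 and 7.41 RPM at 25 mM, so that its groups overlapped before centring, and an excess of -1.31 (SE 0.30, limma adjusted p = 6.14e-04). Rxrg, a nuclear receptor of cones, had 9.94 and 12.6 RPM against 11.96 and 11.4 RPM and an excess of -1.15. Cone transducin, Gnat2, had 0.71 and did not pass.

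The median was 0.25 for bipolar cells, where 2 of 12 gained more and 0 less, Gng13, a G protein gamma subunit, at 1.14 and Otx2, which is also on the regulator list, at 0.54. For Müller glia the median was -0.38, with 1 of 13 higher, Car2 at 0.53, and 1 lower, Dapl1 at -1.25. With voom, 0 Müller loci were higher and 1 lower. For amacrine cells the median was -0.34 with 0 of 9 higher and 2 lower, Calb2 and Th. Ganglion cells had 0 of 5 in either direction and a median of -0.36, and horizontal cells 0 of 3 and 0.15. For microglia, 2 of 7 were lower, Tyrobp and C1qa, with a median of -0.28, and for astrocytes and vessels 2 of 5, Pecam1 and Aldh1l1, with a median of -0.54, beside 7.3% higher and 9.94% lower over all loci. In the 4 fits without 1 library, 0 to 1 microglia loci and 0 to 2 astrocyte and vessel loci were lower, and 0 of either list without the first library of either group. Without the first library of either group, 0 bipolar loci were higher and 0 amacrine loci lower, and without the second 25 mM and 5 mM libraries 1 and 2 bipolar loci were higher and 3 and 2 amacrine loci lower. The cone, Müller, amacrine, ganglion and microglia medians each lay above 0 under 2 or 3 of the alternatives tried, 1 of which was fitted without the filter and moved the median of the same 12833 loci to 0.41.

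Summed signal of the marker lists moved with these values. The microglia list summed to 35.8 and 54.7 RPM at 5 mM and 85.8 and 82.8 RPM at 25 mM, which is 1.86-fold higher, and the astrocyte and vessel list was 1.45-fold higher, against 3.82-fold for the rod list. Genes silent in retina also had a small rise. The 165 olfactory and vomeronasal receptor loci summed to 124 and 165 RPM against 188 and 223 RPM, 1.42-fold higher. The 8 that were tested had a median of -0.44 with 1 lower, beside 9.94% lower over all loci. Without single libraries that median ranged from -0.72 to -0.02. The part of the share of reads in peaks in these values was not tested.

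Among metabolic genes, glycolysis gained more at 5 of 23 loci and less at 1, with a median of 0.36, beside 7.3% higher and 9.94% lower over all loci. Ldha, the subunit of lactate dehydrogenase that favours lactate formation, had 15.5 and 33.0 RPM at 5 mM and 147 and 77.0 RPM at 25 mM, without overlap, and an excess of 1.00 (SE 0.19, limma adjusted p = 2.58e-05). Aldoa had 0.69, Pkm 0.66, Hk1 0.63 and Eno2 0.58. With the strongest peak of each locus alone, the excess of Aldoa was slightly negative. The sister subunit Ldhb had 9.02 and 10.8 RPM against 15.3 and 13.5 RPM, an excess of -0.70, and was the member that gained less. With voom, 1 glycolysis locus was higher and 0 lower. Gapdh at 0.44 and Pfkl at 0.39 did not pass. With single libraries left out, 0 to 5 members passed in the higher direction.

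Of 14 tested loci for glucose transport and sensing, 2 gained more, the transcription factor genes Klf10 at 0.78 and Nr4a1 at 0.58, and Bhlhe40 gained less at -0.76, beside 7.3% higher and 9.94% lower over all loci. Without the first library of either group 0 passed in either direction, and without the second 25 mM library 4 were higher and 1 lower. Slc2a1, the main glucose transporter of the retina, had 72.4 and 109 RPM against 273 and 219 RPM and an excess of 0.24 (SE 0.18, limma adjusted p = 0.367), so that its 2.71-fold gain was not told apart from the common shift. Txnip, a thioredoxin-binding protein whose gene is induced by glucose, had 1.39, 1.77, 3.20 and 3.50 RPM in the 4 libraries, from 6, 11, 23 and 26 reads, and was too weak to be tested. Genes that make acetyl-CoA or transfer acetyl groups gained at 2 of 18, Kat5 and Kat7, and a list of histone deacetylases and subunits of their complexes at 2 of 22, the deacetylase Sirt2 and Mta2, a subunit of the NuRD complex, with medians of 0.10 and -0.01. These shares lie near the 7.3% of all loci, and 0 acetyl-CoA loci passed without the first library of either group. Neither list had a member that gained less, and both medians changed sign under several alternatives.

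Housekeeping and stress lists had medians above 0. Cytosolic ribosomal protein genes had a median of 0.40 with 5 of 30 higher, led by Rps15 at 1.40 and Rpl10a at 0.95, and the 5 became 1 without the first library of either group. Oxidative phosphorylation had 0.25 with 4 of 36 higher, and the proteasome 0.17 with 1 of 18, both near the 7.3% over all loci. The 4 became 1 without the first 25 mM library, 0 without the first 5 mM library and 6 without either second library, and the proteasome call held without the second 25 mM library and in no other such fit. With promoter peaks alone the 3 medians were 0.21, 0.15 and 0.09. None of these 3 lists had a lower member. Immediate early genes had a median of 0.43 with 7 of 18 higher and 1 lower, beside 7.3% higher and 9.94% lower over all loci. Fos had 47.2 and 72.3 RPM against 353 and 176 RPM and an excess of 0.87, Fosb had 1.12 and Junb 0.77, while the lower member was Nr4a2 at -0.81. These counts rest in part on single libraries. With voom 2 immediate early genes were higher and 1 lower, and without single libraries the median ranged from 0.30 to 0.53. Stress and unfolded protein response genes had 0.41 with 4 of 20 higher, the clock 0.25 with 3 of 21 higher and 1 lower, hypoxia response genes 0.16 with 3 of 18 higher and 1 lower, replication histones 0.32 with 0 of 16 past the threshold, and gliosis genes -0.02, of either sign among the alternatives, with 3 of 11 higher, Edn2, Stat3 and Fgf2, and 2 lower, Osmr and Cd44. The 2 lower gliosis calls held without the second 25 mM library and became 0 in the other 3 fits without 1 library, and the 3 higher became 1 without the first 5 mM library. Without that library, 0 stress, clock and hypoxia genes passed, and without the first 25 mM library 0 stress and hypoxia genes did.

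By the same rule the 12 smallest excesses were those of Zmat4, St6galnac3, Lmntd1, Cacna1c, Plxna4, Cacnb4, Fstl4, Tenm2, Kcnmb2, Lsamp, Aff3 and Frmd6, with excesses from -1.20 to -0.96, SEs of 0.18 to 0.22 and adjusted p of at most 4.92e-04. These are the smallest among coding loci of at least 20 RPM, and they stand at ranks 12381 (Frmd6) to 12700 (Zmat4) of the 12833 tested loci. The 12th, Frmd6, had -0.96 and the next, Amph, had -0.95. Cacna1c and Cacnb4 encode calcium channel subunits, Kcnmb2 a subunit of calcium-activated potassium channels, and Plxna4, Tenm2 and Lsamp surface proteins that guide axons and synapses. On the deposited scale they were nearly flat, with means 1.01-fold to 1.20-fold higher at 25 mM, and 0 of the 12 passed the test of the uncentred difference.

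Zmat4, a zinc finger gene, had 20.1 and 19.97 RPM at 5 mM and 20.6 and 19.8 RPM at 25 mM. Its glucose groups overlapped, and after centring this is an excess of -1.20 (SE 0.22, limma adjusted p = 1.36e-05). Cacna1c had 23.4 and 27.2 RPM against 29.9 and 27.3 RPM, an excess of -1.04. Tenm2 had 35.6 and 38.0 RPM against 48.7 and 39.6 RPM, an excess of -0.96. At Cacna1c and Tenm2 both 25 mM libraries lay above both 5 mM libraries, by little. All 12 passed without the second library of either group, 9 without the first 25 mM library and 2 without the first 5 mM library. Of the 12 largest, 11 passed without the first 25 mM library and 12 in each of the other 3 such fits.

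The loci of both sets had to reach a summed 20 RPM, which a locus of low density reaches with many peaks, and which a locus can reach through its 25 mM libraries if it rises but not if it is flat. The density includes the 25 mM values as well. The following contrast is thus fixed in part by the naming rule and is a description. The 12 smallest had a median gene length of 466 kb and 8 to 61 peaks each, with a median density of 1.01 RPKM, whereas the 12 largest had 8.18 kb, 1 to 6 peaks and 19.1 RPKM. The strongest peak lay in a promoter at 4 of the 12 smallest and 9 of the 12 largest. Promoter peaks held a median 7.78% of the signal of the former and 100.0% of the latter.

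Potassium channel genes had 11 of 44 gaining less and 3 more and a median of -0.30, led by Kcnq3 at -1.11, beside 9.94% lower and 7.3% higher over all loci. Those that gained more included Kcnv2, a channel subunit of photoreceptors, at 0.56 and Kcnj14 at 0.55. With voom, 0 potassium channel loci were higher and 8 lower. Neurotransmitter receptors had 4 of 18 lower and 0 higher, with a median of -0.34, and Gabrg3 and Grin2b had -1.17 and -0.99. Of all loci with a promoter share of 5.30% to 33.2%, 19.3% were lower, and the list medians of that share were 16.2% and 19.0%. By H3K27Ac density the list medians stood above 17.6% and 14.0% of tested loci, in the lowest quintile, where 39.6% were lower. That density includes the values being compared, and the part of these traits in the calls was not tested. Without the first 25 mM library the lower calls became 2 for potassium channels and 0 for receptors, and without the first 5 mM library 1 and 0. With promoter peaks alone the medians were -0.05 over 19 potassium channel loci and 0.01 over 6 receptor loci, and without the filter both lay above 0. Notch and progenitor genes had 1 of 17 higher, Rax at 0.65, with a median of -0.15, and of 6 protocadherin loci 0 passed.

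Over the tested loci, the excess differed with how a locus is built. Loci with 1 peak had a median of 0.24, those with 10 or more had -0.26. Where promoter peaks held at least 73.5% of the signal the median was 0.21, and 11.4% of 5133 loci gained more and 1.325% less. In the lowest quintile of promoter share it was -0.29, with 3.04% and 20.9%. It ran from -0.15 to 0.23 between the lowest and highest quintiles of GC content, and over quintiles of gene length it was 0.02 for the shortest genes, 0.17, 0.10 and 0.01 for the next and -0.22 for genes over 78.9 kb. The shortest and longest quintiles had the highest shares of lower calls, 10.3% and 21.4%. By density of H3K18La, which comes from other libraries, the lower 4 quintiles lay at -0.06 to -0.03 and the highest at 0.17. Quintiles of H3K27Ac density itself ran from -0.60 to 0.35, but that density includes the values being compared. By gene class the medians were 0.05 for protein-coding loci and -0.28 for lincRNA loci.

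**Figure D4:**
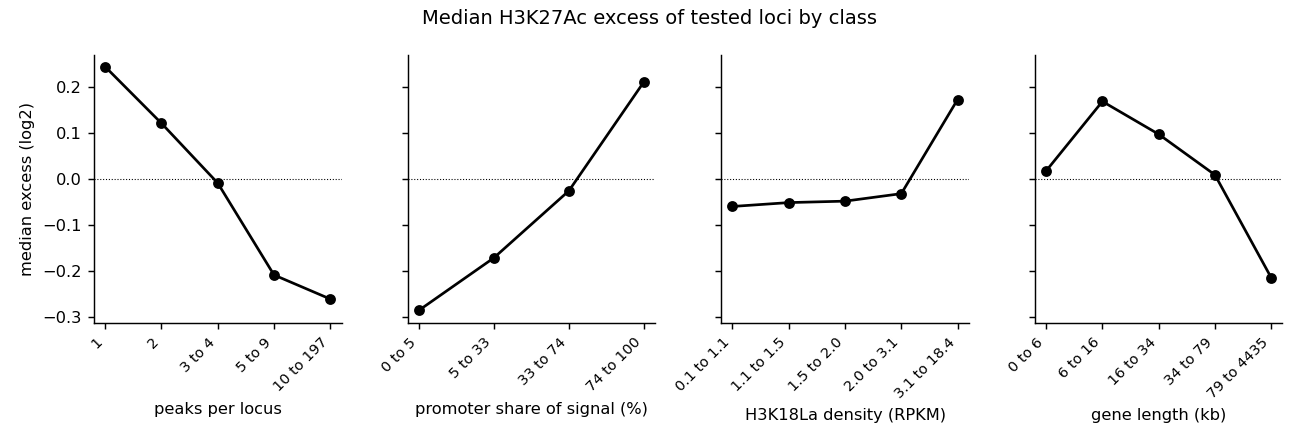
Median excess in log2 units (y axis, shared) of tested loci in classes of number of peaks, promoter share of signal in percent, H3K18La density in RPKM and gene length in kb (x axes, range of each class). Each point is 1 class, and the promoter class from 74 to 100% holds 5133 loci. Medians fall from 0.24 to -0.26 with the number of peaks and rise from -0.29 to 0.21 with the promoter share.

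Rod genes had medians above 0 in promoter peaks and in other peaks. For promoter peaks alone the median over 22 rod loci was 0.71, and for the other peaks it was 0.88 over 18 loci, against 0.05 and 0.04 over all loci of those fits. At Crx the promoter peak gave 1.01 and the other peak, annotated as distal intergenic at chr7:15863388-15865498, gave 1.59. For photoreceptor regulators the medians were 0.65 and 0.74. With a trend on H3K18La density removed, an alternative chosen after seeing the data, the rod median was 0.50 and 11 of 22 passed, and the regulator median was 0.63 with 8 of 15.

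H3K18La was set beside H3K27Ac at the same loci. In the 6 lactylation libraries, 3 per glucose level and centred in the same way, the median change was 0.11 over all loci, 0.98 for rod phototransduction, 1.09 for photoreceptor regulators and 1.01 for the outer segment. Other lists had medians of opposite sign in the marks, and no test compared the lists. Ribosomal protein genes had -0.35 for H3K18La beside 0.40 for H3K27Ac, proteasome genes -0.28 beside 0.17, and cone genes 0.49 beside -0.29. Loci were kept by their H3K27Ac level alone, so that H3K18La can be weak at some, where the pseudocount understates changes. A fit over all 10 libraries tested at each locus whether the centred change differed between the marks. The median difference over tested loci was -0.24, H3K27Ac minus H3K18La. By limma 0 of 12833 loci (0%) passed, with a smallest adjusted p of 0.117, and 2337 loci had an unadjusted p under 0.05. The count became 1169 with a pseudocount of 2, 234 with a replicate block and 193 without the first H3K18La library at 25 mM.

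The largest differences toward H3K27Ac among protein-coding loci with at least 20 RPM were at Cycs, cytochrome c, with 2.12 (SE 0.50), the kinase Taok2 with 1.85 and the mitochondrial ribosomal protein Mrps18b with 1.70. Toward H3K18La they were at Ppp1r42 with -1.84 (SE 0.69), the copper transporter Slc31a1 with -1.57 and Grina with -1.50. Cycs had 4.63 and 12.4 RPM of H3K27Ac at 5 mM against 46.3 and 30.4 RPM at 25 mM. None of these 6 passed after adjustment.

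**Figure D5:**
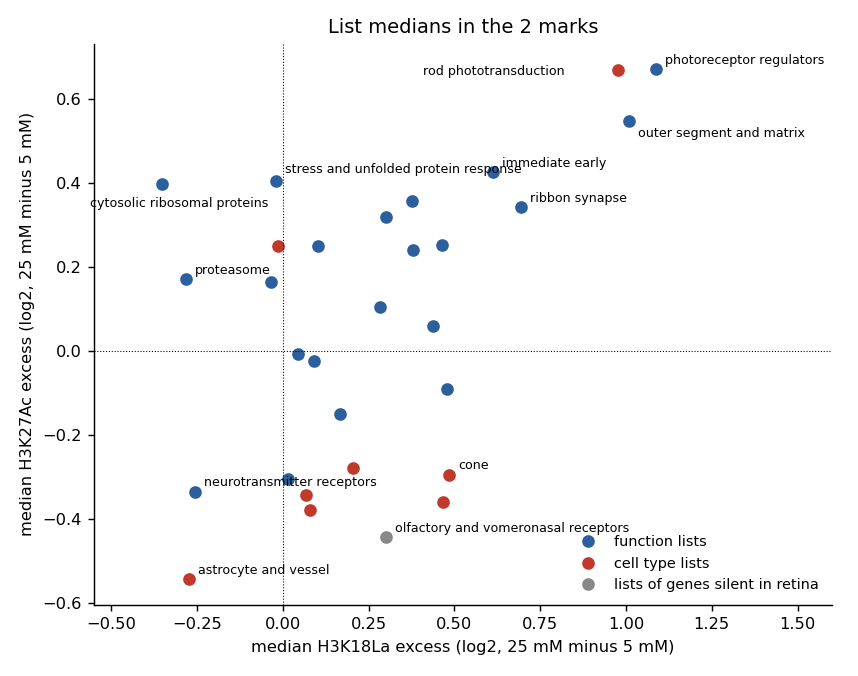
Median centred change between 25 mM and 5 mM glucose in H3K18La (x axis, log2) and in H3K27Ac (y axis, log2) for gene lists with at least 5 tested loci, 1 point per list. Rod, regulator and outer segment lists lie at the upper right in both marks, and ribosomal protein genes lie at 0.40 for H3K27Ac and -0.35 for H3K18La.

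In these fits the spread was estimated from 2 residual degrees of freedom and was taken wholly from its trend over loci, so that the spread of a single locus did not enter its own SE. Of the 937 loci that gained more, 52 also passed in each of the 4 fits without 1 library, and 49 of the 1275 that gained less did. Among rod, regulator and outer segment genes, Gnat1, Guca1a, Nrl, Pdc, Pde6g, Crx, Unc119, Prph2 and Rbp3 were among those that passed in each of those 4 fits.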

How the data were processed

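CUT&Tag libraries of H3K27Ac (2 per glucose level) and H3K18La (3 per glucose level) were analysed. Alignment by the authors was to GRCm38 with nf-core/cutandrun, and they called peaks with MACS, merged them and annotated them with ChIPseeker 1.34.1, with promoters from -1000 to 500 bp around the start site. The peaks match in number the H3K18La peaks that the study merged over ages of developing retina. The values the authors deposited are RPKM per peak and library. Whether window normalization entered their totals is not given in the sources used here. The labels' protocol names an antibody to H3K9me3 where the study's methods name one to H3K27Ac. A second deposited table of the authors' comparison for H3K18La was not used. RPKM times width gave whole reads within 0.01 for 100% of values, so that 1 read was worth 0.135 to 0.231 RPM in the H3K27Ac libraries. Wilson intervals of the shares in peaks were narrow (21.09% to 21.16% in the first 5 mM library) and cover counting error only.

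RPKM was summed by symbol, loci with a mean under 5 RPM over the 4 libraries were left out, and log2(RPM + 0.5) was fitted with limma 3.58.1 (lmFit, eBayes with trend) in R 4.3.3, with Benjamini-Hochberg adjustment and a threshold of 0.05. The pseudocount understates changes of weak loci. The fit was tested on simulated data. The comparison over both marks used an interaction term. Named loci were the 12 largest and 12 smallest excesses among protein-coding loci of at least 20 RPM without overlap between groups, the 3 strongest members and up to 3 called members of each of 32 lists, Ldha, Txnip and Slc2a1, and the 3 largest and 3 smallest differences between marks. Some loci that the rule names are not reported here. The members and lists were chosen with earlier results of these data known. Gene lengths and classes came from GENCODE M21 and promoter sequences from RefSeq (GRCm38.p6). Alternatives in scaling, filter, pseudocount, peak class, moderation, GC content, pairing and left-out libraries were tried.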

Additional observations from a re-analysis of the deposited data

How the results depend on the processing

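The median rise of 1.22 became 0.75 without the filter on low loci, where 12567 further loci entered, and ranged from 0.96 to 1.48 with single libraries left out. The ratio of reads in peaks ranged from 2.00 to 2.98. The count of loci past the threshold before centring, 9673 with 0 lower, became 5970 without the filter (5901 higher and 69 lower), 4712 with non-promoter peaks alone and 2358 with a replicate block, and 0 to 10744 without single libraries. The count of loci past the threshold after centring, 2212, became 6940 without the filter, 1409 of 7243 loci with non-promoter peaks alone, 342 of 8618 with promoter peaks alone, 412 with the strongest peak of each locus alone (an alternative chosen after seeing the data), 987 at a threshold of 0.01, and 248 to 2522 without single libraries, where a lone library was assumed to vary like the other group. A replicate block gave 2654, and 2632 once the GC trend was removed too. The correlation of replicate 1 deviations between the glucose groups was 0.04 over 2 pairs, and the numbers were not taken to pair the samples. The split of 937 higher and 1275 lower became 420 and 2121 when centred on the weakest decile, which put the median of all loci at -0.14, 1337 and 1080 with the GC trend removed, 512 and 1021 with voom, 4214 and 2726 without the filter, and 230 and 112 with promoter peaks alone. The count for the difference between marks, 0, became 1169 with a pseudocount of 2, 234 with the replicate block, and 0 to 193 without single libraries. Over the 31 lists with a tested locus, 15 medians kept their sign under each alternative that gave a value (the microglia and the astrocyte and vessel lists had none with promoter peaks alone), those of the rod, regulator, outer segment, synapse and glycolysis lists among them. With the strongest peak alone, Aldoa came to -0.012 and Pcdh15 to 0.97. Over the named loci, 383 values no longer passed, 114 newly passed and 2 reversed among all alternatives. The cause was not tested. Depth limits weak loci such as Txnip.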
